A study of Homo sapiens with 12 samples.

Results

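The nucleoporins, importins and exportins described here are the genes that build the nuclear pore and carry proteins and RNA through it. They were taken by symbol, with earlier results of these data known, as the NUP, KPNA, KPNB, XPO, IPO and TNPO genes of the expression table, and the rule took 44 of its 19460 genes, 21 nucleoporins and 23 transport receptors. T-47D is an established oestrogen receptor positive, wild-type human breast cancer line. The cells were given 1 µM palbociclib, a drug that blocks CDK4 and CDK6, or the solvent DMSO for 24 h. Each treatment had 3 poly(A) RNA libraries and, from cultures of their own with 0.1% DMSO as the control, 3 ATAC-seq libraries, which read how open the chromatin is. The RNA labels number the libraries without saying that they came from separate cultures, so p-values on RNA measure only the spread between these libraries, while the ATAC labels call theirs biological replicates.

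The nuclear pore is a ring-shaped channel through the nuclear envelope. Its outer and inner rings form the scaffold, flexible proteins rich in phenylalanine and glycine fill the channel, and filaments and a basket stand on its cytoplasmic and nuclear faces. Soluble receptors carry cargo through it: importin alpha proteins read the classical import signal and bind importin beta, other importins bind cargo directly, exportins carry cargo out, and the small GTPase RAN sets the direction. Nuclei must add pores as they grow through interphase, and the pore is taken apart and rebuilt at mitosis in animal cells.

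RNA was measured as FPKM, fragments scaled by transcript length and library size, and a gene counted as changed where limma on log2(FPKM + 1) gave an adjusted p under 0.05. With palbociclib 36 of the 44 genes fell and none rose, against 22.9% of the 15869 tested genes lower and 20.9% higher. At an unadjusted p under 0.05, 1 member, KPNA6, was higher, against 24.9% of tested genes. All 44 passed the filter on low values. Their median log2 change was -0.39, beside 0.0023 over all tested genes. The members' median was -0.39, -0.40 and -0.36 in palbociclib replicates 1, 2 and 3 relative to the DMSO mean, and between -0.017 and 0.014 in the DMSO libraries. In 37 members every palbociclib library was below every DMSO library, against 28.2% of tested genes. KPNA6 alone had every palbociclib library above every DMSO library, which 26.5% of tested genes did. Of the members that fell, 18 fell by 0.5 or more on the log2 scale, against 7.70% of tested genes. At an adjusted p under 0.05, the authors' deposited table has 38 members lower and 1 higher, against 20.3% of its tested genes lower. The share of its genes higher was not computed. In bulk RNA, fewer cells that express a gene and less of its RNA per cell cannot be told apart.

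Dividing each gene by its geometric mean over the libraries gave the same median, 1.003, in all 6 of them, so each change is relative to the median gene. Centring each library on its median left 30 members lower and 2 higher, and quantile normalization 32 lower and 2 higher. The balance over all genes moved more, from 3628 lower and 3312 higher to 2465 lower and 5468 higher with median centring, and to 2856 lower and 4588 higher with quantile normalization. Among genes used as a check of the treatment, RRM2 changed by -5.38, MKI67, a proliferation marker, by -3.60 and CCNE2 by -3.65 on the log2 scale, while CCND1 changed by 1.06, each past the threshold. Their part in the members' values was not tested. The 9 luminal epithelial markers summed to 5590 to 6120 FPKM in DMSO and 7520 to 8300 with palbociclib, a difference whose part was not tested either. KRT8, KRT18 and KRT19 made up most of that difference, with log2 changes of 0.55, 0.50 and 0.46, while the other 6 markers summed to 1025 to 1057 FPKM in DMSO and 1182 to 1206 with palbociclib, and EPCAM differed by -0.14 (limma adjusted p 0.0544). Of 3 leukocyte markers only CD68 was listed, at 0.0105 to 0.173 FPKM, neither of 2 endothelial markers was, and 3 of 4 fibroblast markers were, with COL1A2 and VIM at 0.263 to 2.18 FPKM and COL1A1 at 23.1 to 26.0 in the 6 libraries.

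**Figure D1:**
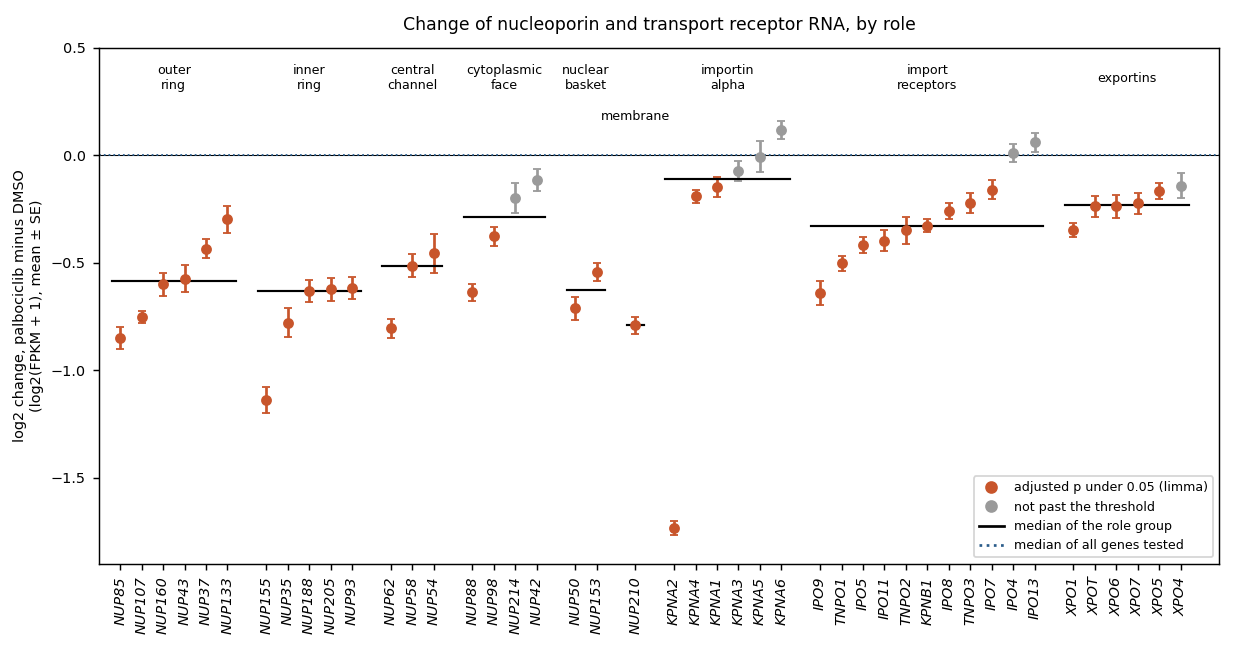
The log2 change of each of the 44 genes (palbociclib minus DMSO on log2(FPKM + 1), mean ± SE, 3 libraries per group), ordered by role. Black lines are medians of the role groups and the dotted line is the median of all tested genes. KPNA2 at -1.73 lies far below the other importin alpha genes, and the medians of the outer and inner rings lie below that of the exportins.

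The largest fall was that of KPNA2 (ENSG00000182481, chr17:68035735-68046854), an importin alpha that recognises classical import signals. It measured 394, 369 and 387 FPKM in the DMSO libraries and 116, 113 and 115 FPKM with palbociclib. The groups were far apart, with a mean of 383 ± 12.9 FPKM (SD, n = 3) against 115 ± 1.51, which is 70.1% below DMSO. The log2 change was -1.73 (SE 0.033, limma adjusted p 2.07e-09).

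The second largest was that of NUP155 (ENSG00000113569, chr5:37288137-37371106), a scaffold protein of the inner ring. Its level was 30.2, 29.2 and 27.7 FPKM in DMSO and 11.8, 12.3 and 13.8 FPKM with palbociclib, a log2 change of -1.14 (SE 0.06, limma adjusted p 1.71e-06). The lowest DMSO library was 2 times the highest palbociclib library.

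To compare their letters, the 250 bases before the RefSeq start (GRCh38.p14, on the gene's strand) are shown for the 5 members with the largest falls and for KPNA6, the member with the largest upward difference. Of these 6, KPNA2, NUP155 and KPNA6 had an ATAC peak within 1 kb of the start, and NUP85, NUP62 and NUP210 had none in the counted set. Capitals mark 3 kinds of motif, searched on both strands: the cell cycle genes homology region, as TTTGAA or TTCGAA; the CCAAT box; and E2F sites, as TTCCCGC or TTGGCGC or TTCGCGC or TTGCCGC. An E2F match can overlap a CCAAT match on the other strand by its first bases. The KPNA2 window is chr17:68035485-68035734 (+ strand), NUP155 chr5:37371107-37371356 (- strand), NUP85 chr17:75205429-75205678 (+ strand), NUP62 chr19:49929505-49929754 (- strand), NUP210 chr3:13420323-13420572 (- strand) and KPNA6 chr1:32107806-32108055 (+ strand).
KPNA2: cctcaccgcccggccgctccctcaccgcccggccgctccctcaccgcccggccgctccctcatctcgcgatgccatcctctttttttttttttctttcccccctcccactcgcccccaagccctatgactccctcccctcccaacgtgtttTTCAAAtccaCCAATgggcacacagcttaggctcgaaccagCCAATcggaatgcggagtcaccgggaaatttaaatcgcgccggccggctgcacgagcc
NUP155: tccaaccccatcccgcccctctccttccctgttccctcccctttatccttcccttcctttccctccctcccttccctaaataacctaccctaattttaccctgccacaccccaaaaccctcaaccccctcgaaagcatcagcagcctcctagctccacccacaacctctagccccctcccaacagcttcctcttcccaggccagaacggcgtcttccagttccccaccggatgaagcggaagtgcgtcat
NUP85: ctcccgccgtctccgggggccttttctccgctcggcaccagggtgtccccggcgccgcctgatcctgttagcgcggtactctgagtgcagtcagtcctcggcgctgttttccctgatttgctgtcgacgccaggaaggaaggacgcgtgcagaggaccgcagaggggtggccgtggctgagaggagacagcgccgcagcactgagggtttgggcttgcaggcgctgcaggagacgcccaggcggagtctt
NUP62: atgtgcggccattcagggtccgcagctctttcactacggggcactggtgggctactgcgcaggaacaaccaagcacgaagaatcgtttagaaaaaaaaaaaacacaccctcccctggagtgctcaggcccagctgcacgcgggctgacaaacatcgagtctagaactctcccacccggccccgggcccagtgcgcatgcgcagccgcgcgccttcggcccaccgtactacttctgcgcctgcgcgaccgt
NUP210: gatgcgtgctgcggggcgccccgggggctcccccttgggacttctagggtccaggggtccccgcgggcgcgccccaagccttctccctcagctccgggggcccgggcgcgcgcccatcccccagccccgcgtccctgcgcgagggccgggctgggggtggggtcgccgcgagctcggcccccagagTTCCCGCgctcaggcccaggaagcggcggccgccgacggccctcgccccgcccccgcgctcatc
KPNA6: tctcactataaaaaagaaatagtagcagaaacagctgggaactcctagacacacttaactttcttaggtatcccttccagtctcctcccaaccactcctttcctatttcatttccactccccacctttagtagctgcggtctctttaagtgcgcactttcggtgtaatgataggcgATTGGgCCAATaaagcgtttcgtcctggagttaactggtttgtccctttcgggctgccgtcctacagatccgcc

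KPNA2 was the only one of the 6 with the homology region letters before its start, 99 bases upstream, followed by CCAAT 89 and 58 bases upstream. NUP210 held an E2F match 64 bases upstream, and KPNA6 held a pair of CCAAT matches on opposite strands, 74 and 68 bases upstream. NUP155, NUP85 and NUP62 held none of these letters in the 250 bases, while in the first 50 bases of the transcript NUP155 held 2 E2F matches, NUP85 held 1 E2F match and 1 CCAAT match, and KPNA2 held a further homology region match. RefSeq promoter windows of 300 bases (250 before and 50 after the start) were found for 39 of the 44 members, 50 windows in all. KPNA4, KPNA5, KPNB1, NUP43 and XPO7 had none. E2F letters stood in 30.0% of the member windows and in 12.97% of all 35116 windows, homology region letters in 24.0% and 16.4%, and CCAAT in 46.0% and 34.6%. The 14 genes with E2F letters had a median log2 change of -0.56 and the 25 without -0.30. For the homology region these medians were -0.58 over 10 genes with it and -0.35 over 29 without, and for CCAAT -0.43 over 19 and -0.35 over 20. These are descriptions of letters, not of binding.

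The outer ring is the Y-shaped scaffold complex. All 6 of its genes taken by the rule fell, by 0.30 to 0.85 on the log2 scale, with a median of -0.59. Of its genes outside the rule, SEC13 rose (log2 change 0.14), while SEH1L changed by -0.27 and AHCTF1 by -0.35, each past the threshold. These were named after their values were seen. NUP85 measured 60.2, 62.4 and 58.7 FPKM in DMSO and 35.5, 32.9 and 31.1 with palbociclib (log2 change -0.85). The 3 palbociclib libraries of NUP107, a core subunit for which the complex is often named, were within 1 FPKM of each other at 49.8, 49.6 and 50.4, against 85.3, 84.0 and 85.2 in DMSO (log2 change -0.75, limma adjusted p 1.67e-07). NUP160 fell from 28.2, 27.7 and 30.2 to 17.9, 18.1 and 19.8 FPKM (-0.60). In all 3 genes the groups lay well apart. NUP43, a small propeller protein on the complex, was at 24.5, 20.8 and 22.5 FPKM in DMSO and at 14.2, 15.3 and 14.9 with palbociclib (-0.57). The other propeller protein, NUP37, fell by 0.43 on the log2 scale. NUP133, which anchors the end of the complex's stalk, fell least, from 27.4, 26.7 and 28.9 FPKM to 21.6, 20.9 and 24.6 (-0.30), and its groups did not overlap. The summed level of the 6 genes was 279 ± 4.04 FPKM in DMSO and 179 ± 2.23 with palbociclib (SD, n = 3).

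In the inner ring, which lines the membrane around the channel, all 5 members fell by more than 0.5 on the log2 scale. After NUP155, NUP35, which binds membrane and NUP155, changed most, from 16.5, 14.7 and 18.0 FPKM to 9.04, 9.08 and 9.24 (log2 change -0.78). Its DMSO libraries were the more spread, and the lowest of them still exceeded each palbociclib library. The large paralogous scaffold proteins NUP188 and NUP205 moved by nearly equal amounts. NUP188 read 32.1, 33.4 and 34.3 FPKM in DMSO and 19.8, 21.1 and 22.6 with palbociclib (-0.63). NUP205 read 23.8, 22.2 and 24.6 in DMSO and 14.1, 14.9 and 15.8 with palbociclib (-0.62). NUP93, the hub that binds either of them, went from 35.8, 37.5 and 37.3 FPKM to 25.1, 22.1 and 24.0 (-0.62). The groups of these 3 genes did not overlap, and their 3 differences lay within 1 SE of each other. The 5 genes together summed to 139 ± 2.59 FPKM in DMSO and 81.6 ± 3.28 with palbociclib.

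The central channel is lined by a trimer of NUP62, NUP58 and NUP54, whose repeats form the permeability barrier, and all 3 fell. NUP62 (chr19:49906825-49929504) measured 30.2, 30.1 and 27.9 FPKM in DMSO and 16.0, 16.6 and 16.6 with palbociclib (log2 change -0.80, limma adjusted p 2.06e-06). NUP58 was at 16.2, 16.3 and 15.5 FPKM in DMSO and 10.4, 11.7 and 10.7 with palbociclib (-0.51). NUP54 was at 12.9, 12.3 and 14.9 FPKM and then 9.68, 8.35 and 10.4 (-0.46, limma adjusted p 0.00378). Each gene's groups were apart, with the widest relative spread in NUP54.

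On the cytoplasmic face, where exported messenger RNA is released, 2 of 4 members fell. NUP88, a partner of NUP214, measured 34.9, 35.7 and 36.8 FPKM in DMSO and 23.6, 22.4 and 21.96 with palbociclib (log2 change -0.64). NUP98, a mobile protein found on both faces, fell by 0.38 on that scale. NUP214 itself read 28.4, 29.2 and 29.7 FPKM in DMSO and 23.1, 24.4 and 28.5 with palbociclib, so its groups overlapped through palbociclib replicate 3 (-0.20, limma adjusted p 0.0511). NUP42, an RNA export cofactor, read 18.3, 19.3 and 19.1 FPKM and then 16.4, 17.4 and 18.5 (-0.11, limma adjusted p 0.109), again overlapping through that library. Without palbociclib replicate 3 both passed the threshold, NUP214 at -0.28 (limma adjusted p 0.00202) and NUP42 at -0.15 (0.0383). NUP214 also passed where a mean of at least 5 FPKM was required (limma adjusted p 0.0358), and it is lower in the authors' deposited table (adjusted p 0.0093).

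Both basket members fell. NUP50, a basket protein that helps release importin alpha from its cargo, went from 18.7, 17.3 and 17.3 FPKM to 10.8, 9.91 and 10.7 (log2 change -0.71). NUP153, which tethers the basket to the ring, went from 23.05, 22.3 and 23.6 FPKM to 15.3, 14.98 and 16.03 (-0.54). The membrane-spanning nucleoporin NUP210 was at 33.0, 34.9 and 33.9 FPKM in DMSO and 19.2, 18.8 and 19.6 with palbociclib (-0.79, limma adjusted p 9.19e-07). No library of these 3 genes crossed into the other group's range. Over the 21 nucleoporins, 19 fell, and the summed level was 658 ± 8.29 FPKM in DMSO and 425 ± 9.86 with palbociclib, 64.6% of DMSO.

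**Figure D2:**
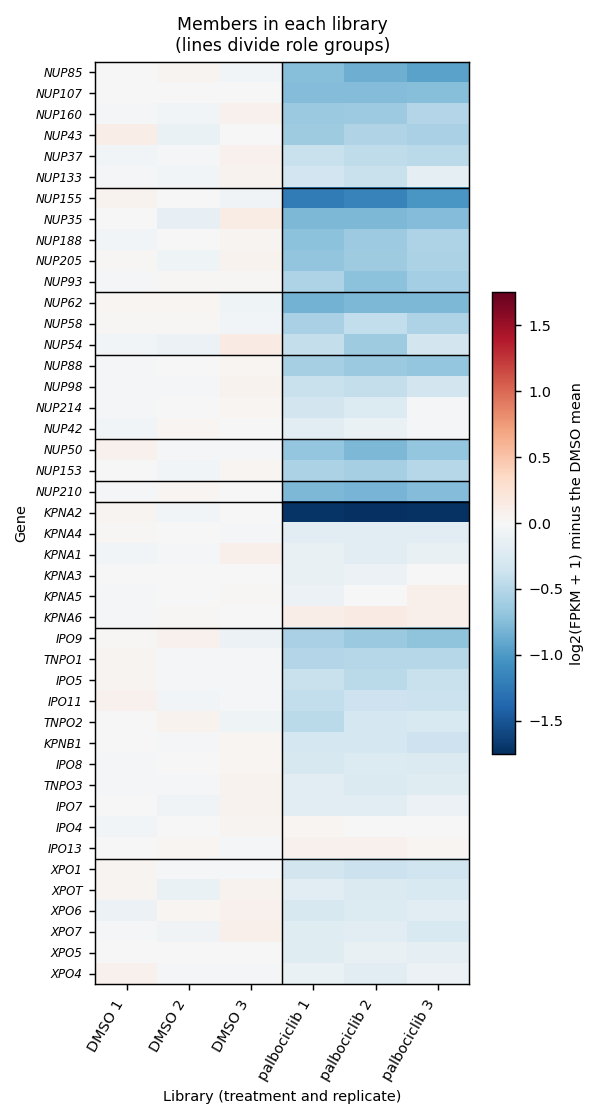
Each cell is the difference of log2(FPKM + 1) in 1 library from the gene's DMSO mean, with genes in rows by role group and the 6 libraries in columns. The 3 palbociclib columns are blue for nearly all nucleoporins, with NUP214 and NUP42 near white in palbociclib 3, darkest for KPNA2, and near white for KPNA3, KPNA5, IPO4 and IPO13.

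The importin alpha family differed most among its members. KPNA2, KPNA4 and KPNA1 fell, while KPNA3, KPNA5 and KPNA6 did not pass the threshold. KPNA4 changed by -0.19 and KPNA1 by -0.15 on the log2 scale, far less than KPNA2. The call for KPNA1 depended on single libraries: its limma adjusted p was 0.0299 with all libraries, and 0.0744, 0.0559 and 0.0989 without DMSO replicate 3, palbociclib replicate 1 and palbociclib replicate 2. KPNA6 measured 11.8, 12.3 and 12.1 FPKM in DMSO and 13.1, 13.5 and 12.9 with palbociclib, above DMSO in every library but short of the threshold (0.12, limma adjusted p 0.0565). It passed with median centring (0.21, adjusted p 0.00431), with quantile normalization (0.22, adjusted p 0.00323) and in the authors' deposited table (0.13, adjusted p 0.0129). KPNA3 differed by -0.074 and KPNA5, the scarcest at 2.85 ± 0.0622 FPKM in DMSO, by -0.0057, and both turn positive with either rescaling, at 0.022 and 0.090 with median centring and 0.022 and 0.050 with quantile normalization.

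The makeup of importin alpha RNA differed between the treatments. KPNA2 made up 79.1%, 77.9% and 78.2% of the summed importin alpha FPKM in the DMSO libraries and 54.4%, 54.0% and 53.7% with palbociclib, a difference of -24.3 percentage points. The other 5 genes together held 106 ± 1.94 FPKM in DMSO and 97.4 ± 1.18 with palbociclib, so nearly all of the summed loss, from 489 ± 13.3 to 212 ± 2.33 FPKM, was KPNA2. Shares of the others were larger with palbociclib: KPNA1 went from 8.09% ± 0.443 to 16.8% ± 0.246 and KPNA4 from 7.51% ± 0.183 to 15.1% ± 0.114. Each of the 6 shares separated the groups fully. The exact permutation test (two-sided, 3 against 3) gave 0.10 for each, the smallest p it allows, and 0.10 after adjustment over the 6 shares, so it cannot pass 0.05. Shares sum to 100%, so a lower share of KPNA2 raises the rest by construction.

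**Figure D3:**
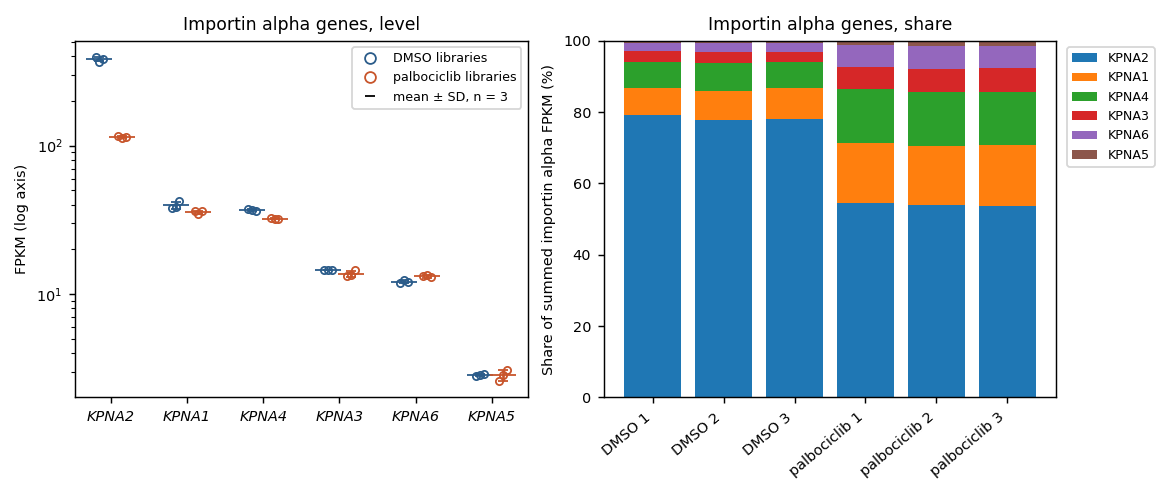
Left, FPKM of the 6 importin alpha genes on a log axis, with 1 circle per library and bars for the mean ± SD (n = 3). Right, each gene's share of the summed importin alpha FPKM in every library, with KPNA2 between 77.9% and 79.1% in DMSO and between 53.7% and 54.4% with palbociclib.

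Among the import receptors that bind cargo or importin alpha, 9 of 11 fell, with a median of -0.33 on the log2 scale. KPNB1, importin beta, the partner of every importin alpha, is the most abundant, at 202, 198 and 206 FPKM in DMSO and 163, 163 and 157 with palbociclib (-0.33, limma adjusted p 5.58e-05). Its groups were apart, and its difference was far smaller than that of KPNA2. The ratio of KPNA2 to KPNB1, both per length, was 1.95, 1.87 and 1.88 in the DMSO libraries and 0.713, 0.694 and 0.730 with palbociclib. This ratio was chosen after the values were seen, and KPNA2 went from more abundant than KPNB1 in each DMSO library to less abundant in each palbociclib library.

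IPO9, an importer and chaperone of histones, changed most in this group, from 31.9, 32.9 and 29.2 FPKM to 20.8, 19.5 and 18.8 (log2 change -0.64). TNPO1, or transportin, which imports RNA-binding proteins, went from 51.2, 48.5 and 48.4 to 34.4, 34.7 and 34.6 (-0.50), with palbociclib libraries that barely differed. Its close paralog TNPO2 fell by 0.35 and TNPO3, an importer of splicing factors, by 0.22. IPO5, an importer of ribosomal proteins and histones, fell by 0.42, IPO11 by 0.40 and IPO8 by 0.26. IPO7, which also imports ribosomal proteins, changed by -0.16 (limma adjusted p 0.0176), and its adjusted p was 0.0531, 0.0571 and 0.0631 without DMSO replicate 3, palbociclib replicate 1 and palbociclib replicate 2. IPO13, which works in both directions, read 12.5, 12.9 and 12.2 FPKM in DMSO and 13.3, 13.3 and 12.8 with palbociclib (0.061, limma adjusted p 0.298), and it passed only with rescaling, at 0.16 with median centring (adjusted p 0.019) and 0.16 with quantile normalization (adjusted p 0.0157). IPO4, an importer of histones, differed by 0.011, and by -0.014 without DMSO replicate 1. The groups of both IPO13 and IPO4 overlapped.

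Of the 6 exportins 5 fell, none of them by 0.5 or more on the log2 scale. XPO1, or CRM1, the main exporter of proteins with a leucine-rich signal, measured 86.6, 82.1 and 82.9 FPKM in DMSO and 67.0, 64.6 and 65.4 with palbociclib (log2 change -0.35, limma adjusted p 6.82e-05). XPOT, the exporter of transfer RNA, and XPO6, the exporter of actin, each changed by -0.24, XPO7 by -0.22 and XPO5, the exporter of microRNA precursors, by -0.17. XPO4 was lower in each palbociclib library, at 5.47, 5.13 and 5.55 FPKM against 6.38, 5.89 and 5.84, but missed the threshold (-0.14, limma adjusted p 0.0904), and it is lower in the authors' deposited table (adjusted p 0.0213). With median centring XPO5, XPO6 and XPO7 no longer passed the threshold (limma adjusted p 0.17, 0.0595 and 0.0739), nor did TNPO3, IPO7 and KPNA1 (0.0543, 0.262 and 0.386). With quantile normalization XPO5, TNPO3, IPO7 and KPNA1 were lost as well (limma adjusted p 0.108, 0.0587, 0.102 and 0.142). KPNA1 also missed the threshold in limma without its intensity trend (adjusted p 0.0621). Over all 23 receptors the median was -0.22 on the log2 scale, and over the nucleoporins it was -0.62.

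The other parts of the transport system were described from a list of 42 genes outside the rule: the RAN cycle, further nucleoporins, and the messenger RNA export machinery. Of these 27 fell, 2 rose and 13 did not pass the threshold, against the 22.9% lower and 20.9% higher among all tested genes, and their median was -0.22. The 2 that rose became 5 with median centring and 4 with quantile normalization. In the RAN cycle, RAN itself was at 571, 545 and 571 FPKM in DMSO and 386, 387 and 377 with palbociclib (log2 change -0.55). Its exchange factor RCC1 changed by -0.96, its activator RANGAP1 by -1.001 and the coactivator RANBP1 by -0.93, and the groups of all 4 were apart. CSE1L, the exportin that returns importin alpha to the cytoplasm, went from 171, 165 and 173 FPKM to 88.4, 84.8 and 85.5 (-0.97, limma adjusted p 6.5e-08), a larger difference than that of any of the 6 exportins named by the XPO symbols.

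Among further pore genes, NDC1, a membrane anchor of the pore, changed by -0.85 and TPR, the main basket filament, by -0.52. SENP1, a SUMO protease at the pore, changed by -0.89. SEC13, an outer ring protein shared with vesicle coats, rose by 0.14 (limma adjusted p 0.0112), and RANBP2, the cytoplasmic filament protein, rose from 19.1, 18.1 and 17.9 FPKM to 21.2, 20.1 and 21.8 (0.18, limma adjusted p 0.0126). Both were named after their values were seen. RANBP2 has near-identical copies, and the 5 RGPD genes listed had at most 1.21 FPKM in any library. In messenger RNA export, the adaptor ALYREF changed by -0.98 and the cofactor NXT1 by -0.57. The helicase DDX39A went from 81.4, 82.7 and 85.9 FPKM to 39.7, 39.8 and 37.1 (-1.08), while its paralog DDX39B read 170, 169 and 161 and then 165, 172 and 169 (0.018, limma adjusted p 0.682), a gene also named after its values were seen. With median centring DDX39B was at 0.11 and passed the threshold (limma adjusted p 0.0205).

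**Figure D4:**
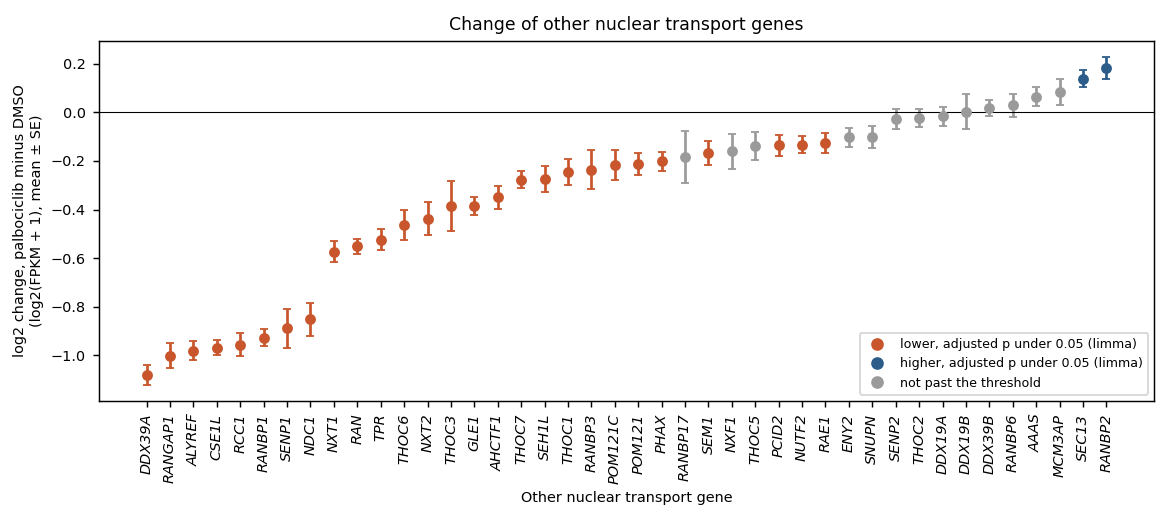
The log2 change (mean ± SE, 3 libraries per group) of the 42 other transport genes, ordered by size. From DDX39A at -1.08 to TPR at -0.52, 11 genes fell by 0.5 or more, and SEC13 and RANBP2 at the right rose.

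ATAC-seq counts were tested with edgeR over 38121 peaks, with 12830062 to 18250496 counts in peaks per library. Within 1 kb of a start, 19 of the 44 members had 21 peaks, and 25 members had none in the counted set, NUP62, NUP85 and NUP210 among them. Of the 21 peaks 3 were lower and none higher, against 11.4% of the 7363 peaks within 1 kb of any start lower, so the members' count is close to that background. Over all peaks, 6.46% were lower and 5.41% higher. At an unadjusted p under 0.05, 7 of the 21 peaks were lower and none higher, against 21.4% and 4.78% of the peaks near any start. DESeq2 called 2 of the 21 lower and none higher, against 7.58% lower near any start. The median log2 change was -0.082 over the 21 peaks and -0.046 over all promoter peaks.

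The largest difference was at NUP37 (chr12:102119715-102120687, over the start), with 71.4, 70.2 and 77.2 CPM (counts scaled to library size) in DMSO and 55.2, 55.6 and 58.1 with palbociclib (log2 change -0.37, edgeR adjusted p 7.3e-06). The peak over the KPNA2 start (chr17:68035307-68036229) had 111, 103 and 114 CPM in DMSO and 101, 99.9 and 89.2 with palbociclib (-0.17, edgeR adjusted p 0.0292). The KPNB1 peak (chr17:47649158-47650030) had 435, 410 and 429 and then 383, 393 and 384 (-0.14, edgeR adjusted p 0.0146). In each of the 3 every palbociclib library was below every DMSO library. Of all 21 peaks this held for 5, and the reverse for 1. The share of such peaks near any start was not computed. NUP155 had 133, 123 and 127 CPM and then 117, 116 and 116 (-0.13, edgeR adjusted p 0.0656). NUP107, whose RNA changed by -0.75, had a peak over its start that differed by -0.0070. Of 13 members whose RNA fell and that had such a peak, the nearest peak was lower in 3 and not called in 10. Without DMSO replicate 1 or DMSO replicate 3 NUP37 alone passed: KPNA2 had an adjusted p of 0.0983 and 0.167, and KPNB1 of 0.0949 and 0.0584. KPNB1 was also lost without palbociclib replicate 1 (0.0946) and KPNA2 without palbociclib replicate 3 (0.183) or with DESeq2 (0.0844), while NUP155 passed without DMSO replicate 2 (0.0445) and a second KPNB1 peak without palbociclib replicate 3 (0.0288).

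**Figure D5:**
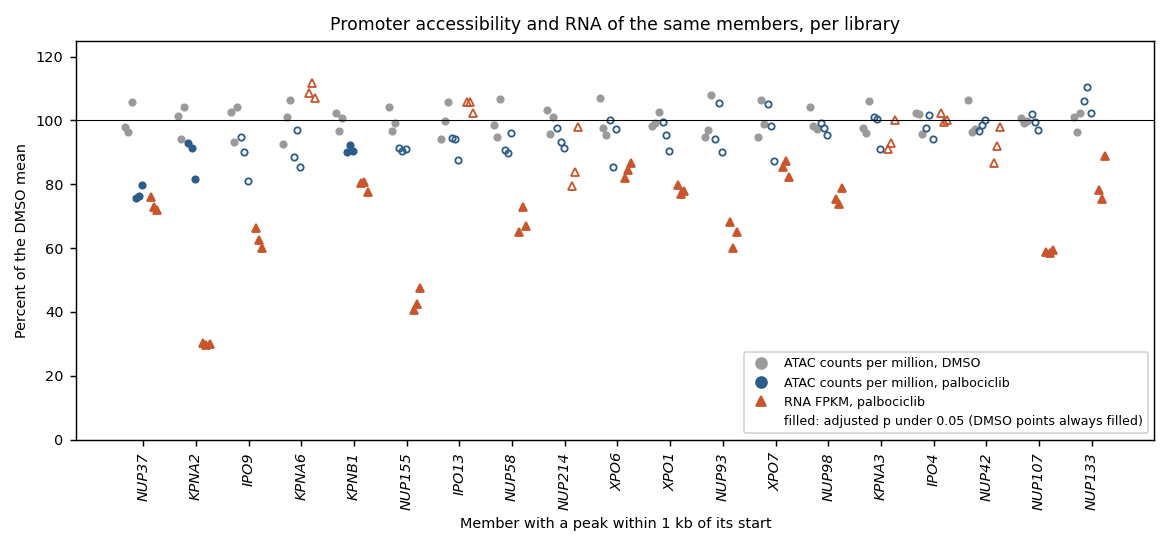
For the 19 members with a peak within 1 kb of their start, ATAC CPM (circles) and RNA (triangles) per library as a percent of the DMSO mean, filled where the adjusted p was under 0.05. Palbociclib circles are lowest at NUP37, at 75.7%, 76.2% and 79.7%, and triangles are lowest at KPNA2.

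Inside the members' genes but away from their starts lay 20 peaks in 17 genes. Of these 1 was called, as higher, against 5.41% of all peaks higher and 6.46% lower, so the count is not above that background. The called peak lies in XPOT (chr12:64437608-64437970). It had 6.27 ± 0.447 CPM in DMSO and 9.14 ± 1.45 with palbociclib (SD, n = 3; log2 change 0.54, edgeR adjusted p 0.0138), while XPOT RNA fell. Counts were 75, 112 and 96 in DMSO and 159, 110 and 143 with palbociclib. The call was lost without DMSO replicate 1, DMSO replicate 2, palbociclib replicate 1 or palbociclib replicate 3 (edgeR adjusted p 0.0572, 0.0611, 0.0813 and 0.0645).

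Splicing of the members was read from the authors' rMATS tables, which list 811 events in these genes. With at least 20 reads per library on average and at least 5% for the rarer form, 198 events in 38 genes were tested with edgeR. None changed in inclusion, against 0.350% of all 37445 events tested. The lowest adjusted p was 0.149, and 15 events (7.58%) had an unadjusted p under 0.05, beside 8.53% of all events. The median size of the difference in inclusion level was 0.0156.

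The authors' deposited table gives 7 member events an FDR under 0.05, against 2.47% of all its events, and 3 of the 7 were among those tested here. An exon of NUP62 near its start (chr19:49927694-49927815, 122 bases) had inclusion levels of 0.742, 0.738 and 0.774 in DMSO and 0.864, 0.838 and 0.795 with palbociclib (edgeR adjusted p 0.276, the authors' deposited FDR 0.0269). A longer form of this exon (chr19:49927694-49927848, 155 bases) had a mean level of 0.738 in DMSO and 0.813 with palbociclib. It did not pass by either measure (edgeR adjusted p 0.344, the authors' deposited FDR 0.0709). A region of IPO4 that can keep an intron (chr14:24188344-24188638) had levels of 0.0688, 0.0206 and 0.0802 in DMSO and 0, 0.0155 and 0.0165 with palbociclib (edgeR adjusted p 0.149, the authors' deposited FDR 0.00312). The last of the 3 events, a region of XPOT that can keep an intron (chr12:64425038-64425457), had a mean level of 0.0661 in DMSO and 0.0894 with palbociclib (edgeR adjusted p 0.254, the authors' deposited FDR 0.0449). It passed without DMSO replicate 1 (edgeR adjusted p 0.0489).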

How the data were processed

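The members and gene lists were chosen with earlier results of these data known. Per the submitters' processing notes, RNA reads went through fastp 0.23.2, Salmon 1.10.2, STAR 2.7.10b, SAMtools 1.16 and DESeq2 1.44.0, and ATAC reads through Bowtie2 2.5.4-6, Picard 3.4.0-0 and MACS3 3.0.3-0, on GRCh38. The authors deposited FPKM per library, and a table with a mean normalized count per gene (a signal value), log2 fold changes, p-values and a Wald statistic, which is a score, according to its header. In that deposited table the members' mean normalized counts ran from 711 to 40739. ATAC counts over 1 peak set were made by the authors with featureCounts 2.0.6, per the file headers. The splicing tables deposited by the authors hold read counts per form, inclusion levels and p-values from rMATS.

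From these, limma 3.58.1 (R 4.3.3) with an intensity trend was fitted to log2(FPKM + 1) where the mean over libraries reached 0.5 FPKM. The pseudocount makes fold changes of low genes smaller. edgeR 4.0.16 quasi-likelihood tests were fitted to peak counts (TMM) and to inclusion and skipping reads, with a term per library. p-values were adjusted by Benjamini-Hochberg over all tested genes, over all peaks, and within each type of splicing event. Every member may be named. Values in every library are given for members past the threshold with a log2 change of 0.5 or more in size, the extremes of each role group, KPNB1 and XPO1. Other transport genes are named where they fell by 0.5 or more, with RAN, CSE1L and TPR always. Those named after their values were seen are marked as such. Alternatives covered the pseudocount, filters, scaling, DESeq2 1.42.0 on peaks, a replicate block and leaving out each library. Gene bounds and promoters come from RefSeq, GRCh38.p14. The fits were tested on simulated data. For splicing these held large changes, only in exons that can be skipped and have many reads. They do not speak to small differences or to other types of event.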

Additional observations from a re-analysis of the deposited data

How the results depend on the processing

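Of the 44 members, 30 kept their direction and their side of the threshold under all 14 RNA alternatives. The count of members lower was 34 to 38 when single libraries were left out, 30 to 38 under the other alternatives, and 18 with a log2 change of at least 0.5 required. Members higher numbered 0, against 2 with median centring, 2 with quantile normalization and 1 in the authors' deposited table. Other transport genes higher numbered 2, against 5 with median centring, 4 with quantile normalization and 0 at a log2 change of at least 0.5. Those lower numbered 27, and 11 at that size. Among the 58 members and other transport genes followed singly, signs turned in these, all short of the threshold with all libraries: KPNA3 was 0.022 with either rescaling, KPNA5 was 0.090 with median centring, 0.050 with quantile normalization and -0.051 to 0.043 when single libraries were left out, IPO4 was -0.014 to 0.036 and DDX39B -0.0067 to 0.034 when single libraries were left out. The members' median was -0.29 with median centring, -0.31 with quantile normalization and -0.41 in the authors' deposited table. The median over all tested genes moved too, from 0.0023 to 0.098 with median centring and to 0.057 with quantile normalization. Median centring moves the log2 change of every gene by the same amount. ATAC promoter peaks lower numbered 1 to 4 when single libraries were left out. Splicing events with higher inclusion numbered 0 to 1 when single libraries were left out and 5 by the authors' deposited FDR, and those with lower inclusion 2 by that FDR. Beyond the common shift of median centring, the cause of these changes was not tested.

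The labels state no pairing of the libraries by replicate number, and correlations with 3 libraries per group cannot exclude one. The deviations of same-numbered RNA libraries correlated at 0.106, -0.0051 and 0.0879, and those of ATAC libraries at 0.0054, 0.0402 and -0.0262. RNA libraries numbered 1 and 3 correlated best with their own number, those numbered 2 did not, and not every ATAC library did. With the replicate block 37 members were lower instead of 36, the added one being NUP214 (limma adjusted p 0.0248), promoter peaks lower stayed at 3 and no splicing event was called.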

Other observations

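KPNA2P3, a pseudogene of KPNA2, was listed at 3.64, 3.75 and 4.09 FPKM in DMSO and 7.71, 6.20 and 8.27 with palbociclib (log2 change 0.79, limma adjusted p 0.000278), while KPNA2 fell. How reads shared by the 2 were divided is not given in the sources used here, and KPNA2 itself was at 113 FPKM or more in every library.

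Over the 19 members with a promoter peak, the change of RNA and that of the nearest peak had a Pearson r of 0.23 and a Spearman rho of 0.26, and r was 0.13 without KPNA2. These correlations are across genes measured in the same libraries, and genes are not independent replicates.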
